A study of Homo sapiens with 19 samples.

Results

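Human liver organoids kept on an orbital shaker (OS) and exposed to transforming growth factor β1 (TGFB1) were compared with the organoids that served as its control. These are 4 of the 19 libraries of the series, chosen by their titles: 2 labelled as treated with TGFB1 at 10 ng/ml and 2 labelled as the control for TGFB1. All 4 were made from W01, an established human pluripotent stem cell line distributed by WiCell, with a wild-type genotype, so 1 line stands behind every value. Organoids were cultured for 20 days, treated for 5 days and collected on day 25. What the control organoids received in place of TGFB1 is not stated in the sources used here. Trypsin was used to free the cells, whose RNA was read in droplets (10x Genomics 3′ version 3), in which a unique molecular identifier (UMI) counts each captured transcript once. The labels number the libraries but do not say whether they came from separate cultures. A p-value here therefore measures the spread between libraries, which may be technical. For whole libraries that spread was estimated over all 14 shaker libraries of the series. Besides the 4 described, these are labelled as PA-treated (500 µM), OA-treated (500 µM), the controls for each, and day 25 organoids with no treatment named.

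Barcodes were kept from 500 detected genes upward and up to a mitochondrial share of 20%, which left 9615 cells in control 1, 8505 in control 2, 6002 in TGFB1 1 and 6904 in TGFB1 2. Control 1 was the shallowest, with 15815116 UMIs in kept cells and a median of 1310 per cell, against 39214175 to 52288915 UMIs and medians of 5202 to 7092 in the other libraries. The 2 controls also stood apart in their cells: a cluster that held 69.75% of control 1 held 3.151% of control 2, and another held 2.683% and 61.62%. The fit was therefore repeated 4 times, leaving out 1 of the 4 libraries each time, and a call is said to have held where all 4 repeats made it. Pairs of libraries shared 8 to 26 cell barcodes, at most 0.306% of the smaller library. Genes the TGF-β pathway is known to raise checked the labels: PMEPA1 was at 102 and 142 CPM (counts scaled to a common library size) in the controls and at 603 and 538 CPM with TGFB1, and 5 of the 6 check genes rose, among them PMEPA1, SKIL, TGFBI and COL1A1. SMAD7, the sixth, stood at 32.4 and 13.4 CPM in the controls and 28.2 and 32.6 CPM with TGFB1.

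TGF-β binds a pair of receptor kinases that phosphorylate SMAD2 and SMAD3, which enter the nucleus with SMAD4 and act on target genes together with other transcription factors. In the liver it is best known for activating matrix-producing stellate cells, and in epithelia for halting cell division and for lowering epithelial and raising mesenchymal genes. The matrix itself is left aside here. The genes described are 286 transcription factors, 250 secreted factors and 151 genes of epithelial identity or of the mesenchymal cytoskeleton, grouped in lists by family or by the cell type they are known from.

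Library-wise sums of the UMI counts were tested with edgeR's quasi-likelihood test, with p-values adjusted over all 19366 genes tested. Of these, 2104 (10.9%) were called higher with TGFB1 and 2191 (11.3%) lower at an adjusted p under 0.05, and the median log2 fold change was -0.05. The lists and their members were chosen with earlier results of these data known. Their shares are therefore given beside that background and were not tested against it. Of the 230 secreted factors tested, 78 were higher (33.9%) and 32 lower (13.9%), with a median log2 fold change of 0.63. Of the 274 transcription factors tested, 56 rose (20.4%) and 60 fell (21.9%), a larger share than the background in both directions, with a median of -0.03. Of the 146 tested genes of epithelial identity or of the mesenchymal cytoskeleton, 26 rose (17.8%) and 29 fell (19.9%), with a median of -0.15, and 10 of the 26 rises were those of the 14 mesenchymal cytoskeleton genes. Of these calls, 26 rises and 24 falls of transcription factors held without each library, as did 45 rises and 11 falls of secreted factors and 12 rises and 22 falls of the epithelial and cytoskeleton genes, 5 of the 12 rises being of the mesenchymal cytoskeleton. Among the genes called, rises outnumbered falls in the lists known from mesenchyme, WNT signalling and cytokines, and falls outnumbered rises in those known from hepatocytes, gut and the cell cycle.

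**Figure D1:**
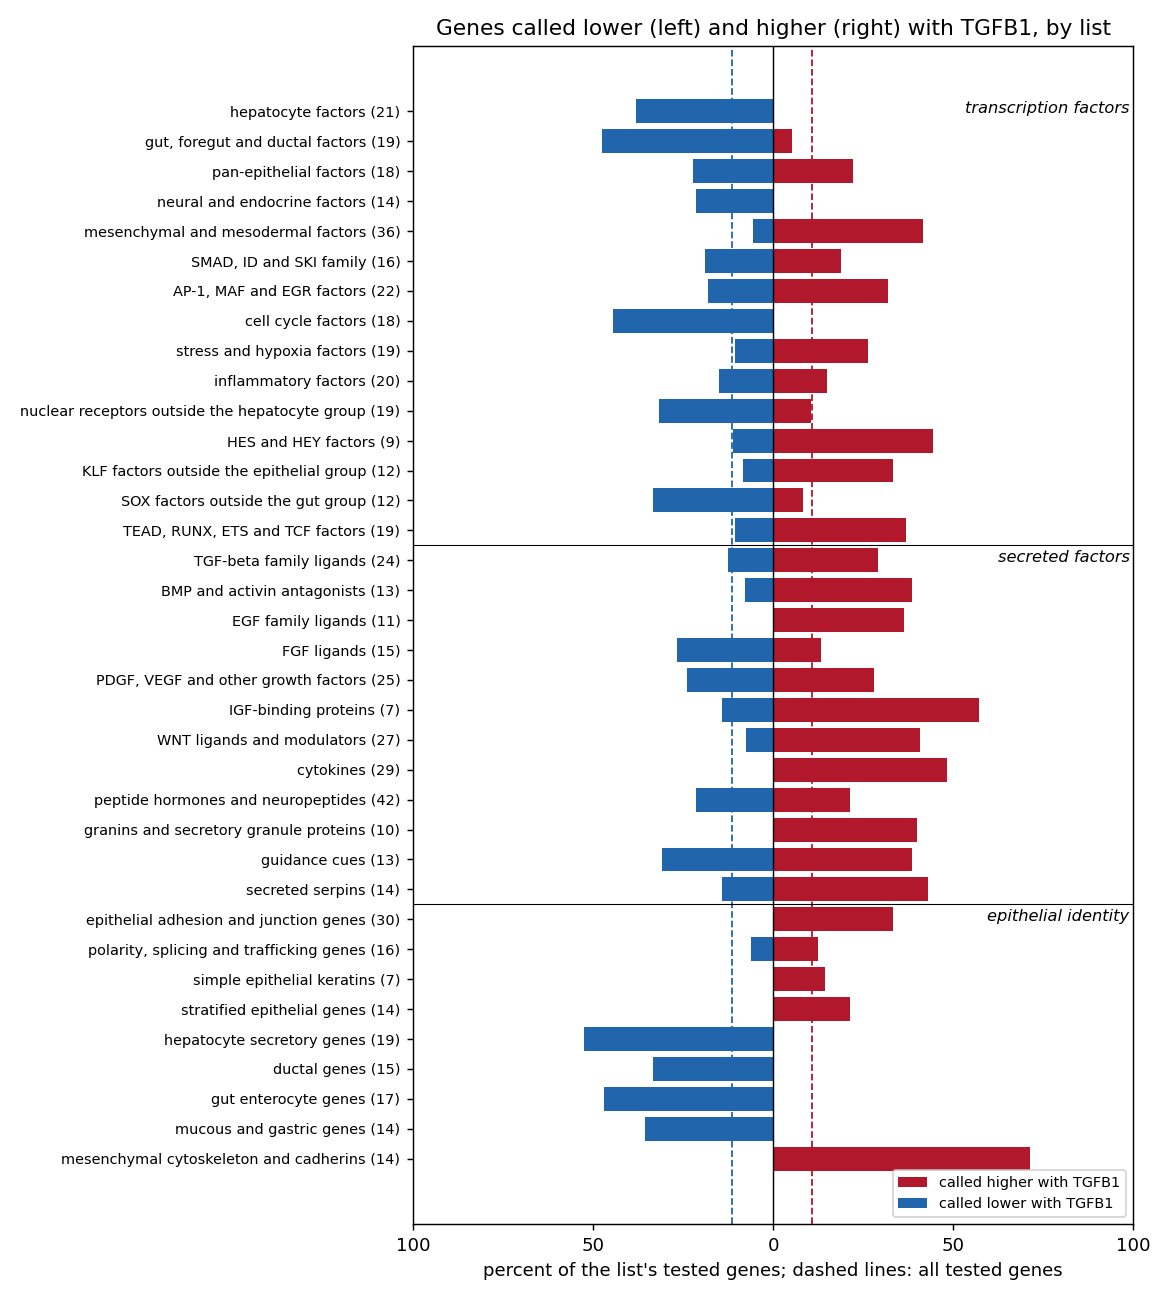
Percent of each list's tested genes called higher (right, red) or lower (left, blue) with TGFB1, with the number tested in parentheses and dashed lines at the background of 10.9% and 11.3%. Mesenchymal cytoskeleton genes (71.4%) and IGF-binding proteins (57.1%) reach farthest to the right, and hepatocyte secretory genes (52.6%) farthest to the left. The lists were chosen with earlier results of these data known.

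The cell mix moved with the treatment. A cluster with mesenchymal-like markers (9 of the 12 markers among its 50 leading genes) held 3.95% and 4.12% of control cells and 7.51% and 9.97% of TGFB1 cells, and the summed CPM of the 12 markers was 524.4 and 591.8 in the controls and 1569.7 and 1924.3 with TGFB1. In sums over whole libraries, more cells of a type and more RNA per cell cannot be told apart. The test was therefore repeated on cells outside that cluster, in a fit to the 4 libraries of the TGFB1 experiment alone. There 1648 of 16520 genes (9.98%) were higher and 1717 (10.4%) lower, and values there are named below as outside the cluster. Adjusted p-values there and in whole libraries differ in the libraries fitted as well as in the cells. The outside cells of the 2 groups lay in different clusters: one led by KRT7, MMP7 and GAL, among others, held 66.4% and 78.9% of TGFB1 cells and 0.27% and 2.65% of control cells, and another held 13.6% and 4.1% against 0.0208% and 0.0588%. Within the mesenchymal-like cluster alone, 44 of 12074 genes (0.364%) were called in either direction. That fit too used the 4 libraries alone, with 380 and 350 such cells in the controls and 451 and 688 with TGFB1. With so few cells, a gene not called there may still have changed. A small cluster of low depth (0.2296 of the library median UMI count), which carried no name, held 9.13% of TGFB1 1, 3.77% of TGFB1 2, 3.43% of control 2 and 0.114% of control 1. It was led by LGALS1, MT2A, TPM2, NUPR1 and ACTA2, of which LGALS1, TPM2 and ACTA2 are on the mesenchymal cytoskeleton list. Its 50 leading genes held 2 smooth muscle markers and 0 mesenchymal markers. Outside values given below include its cells. With that small cluster left out too, 1723 genes were higher and 1706 lower, an alternative added after the data were seen. Of the other cell types checked, the endothelial genes CDH5, TIE1, CLDN5 and VWF and the immune genes PTPRC, CD14, TYROBP and CD163 were too low to be tested in these libraries. The summed CPM of the tested endothelial markers (1 of 6 higher) was 39.5 and 81.9 in the controls and 77.9 and 73.3 with TGFB1, and that of the neural markers (1 of 7 higher, 2 lower) was 40.1 and 48.2 against 91.0 and 70.5. That of the immune markers (1 of 4 higher, 1 lower) was 173.1 and 174.4 against 42.6 and 31.2, and that of the smooth muscle markers (2 of 7 higher) was 11.5 and 21.9 against 46.4 and 39.4. A sum follows its most abundant members. The median log2 fold changes of the tested endothelial, neural, immune and smooth muscle markers were 1.358, -0.594, -0.605 and 1.389. For the neural markers the median thus had the opposite sign to the change of the sum. The part of these cell types in the results was not tested.

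TP63, which encodes the p63 protein that maintains basal cells of stratified epithelia (chr3:189631389-189897276, GRCh38), was at 0.239 and 0.316 CPM in the controls and at 10.4 and 11.03 CPM with TGFB1. The groups did not overlap, as was so for 30.9% of all genes tested in the higher and 33.2% in the lower direction, and the rise of 5.2 ± 0.61 (log2 fold change ± SE, adjusted p = 7.08e-05) was 5.52 outside the mesenchymal-like cluster. At each cell's full depth, 7.55% and 6.69% of the cells outside the cluster held a TP63 UMI, and 0.0433% and 0.196% in the controls. Thinned to 1000 UMIs per cell those shares were 0.977%, 1.42%, 0.0156% and 0.0376%.

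TFAP2A, the AP-2α factor of surface ectoderm (chr6:10393186-10419659), rose from 2.16 and 2.20 CPM to 17.6 and 19.0 CPM, a log2 fold change of 3.07 ± 0.32 (adjusted p = 3e-05), and of 3.42 outside the cluster. GRHL3 (3.51), a driver of epidermal barrier formation, also rose. Its rise exceeded that of TFAP2A, but GRHL3 did not meet the naming rule. That rule asks for groups without overlap and a mean of at least 5 CPM in the higher group. In all, 4 of the 18 tested pan-epithelial factors rose and 4 fell. The falls were ELF5 (-3.66), KLF5 (-1.83), GRHL1 (-1.5) and ELF3 (-0.79), the last called in 1 of the 4 fits that leave out a library and not outside the mesenchymal-like cluster (adjusted p = 0.14). KLF5, known from intestinal crypts, was at 181 and 168 CPM in the controls and at 47.7 and 50.3 CPM with TGFB1. GRHL2, a factor that holds epithelial identity in many tissues, was at 29.6 and 21.2 CPM against 17.4 and 18.0 CPM and was not called (adjusted p = 0.139).

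BARX1, a homeobox factor of stomach mesenchyme (chr9:93951627-93955355), was at 0.287 and 0.366 CPM in the controls and at 6.70 and 6.89 CPM with TGFB1. Its rise of 4.32 ± 0.53 (adjusted p = 8.97e-05) was the single rise in the list of gut, foregut and ductal factors, where 9 of 19 tested genes fell, 5 of them without each library. Outside the mesenchymal-like cluster it was 4.46, and within the cluster the gene was too low to be tested. Both libraries of each group stood close together.

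Of 36 tested mesenchymal and mesodermal factors, 15 rose (41.7%) and 2 fell (5.56%), with a median log2 fold change of 1.28, and 10 of the rises held without each library. FOXS1, a forkhead factor known from pericytes, went from 0.0479 and 0.416 CPM to 10.5 and 5.94 CPM. The rise was 4.83 ± 0.72 (adjusted p = 0.000434), and 7.34 without control 2, in which most of the control counts lay. FOXC2, a forkhead factor of mesenchyme, went from 1.20 and 1.90 CPM to 16.5 and 14.5 CPM (3.27 ± 0.31, adjusted p = 1.38e-05). The groups overlapped for neither gene, a condition of the rule that named both. Among the factors known for driving the epithelial to mesenchymal transition, SNAI2 (2.31), ZEB1 (1.81), TWIST1 (1.62), TWIST2 (1.70) and ZEB2 (1.20) rose, the last 2 in none of the 4 fits that leave out a library. SNAI1 was at 1.25 and 1.00 CPM in the controls and at 1.34 and 1.61 CPM with TGFB1, and was not called (adjusted p = 0.466). NR2F2 (-1.44), an orphan receptor of foregut mesenchyme and veins, and MEIS1 (-1.15) fell, the latter in 2 of the 4 repeats.

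In the cells outside the mesenchymal-like cluster, 16 of the 25 factors of the list tested there rose and 2 fell. There the log2 fold change was 6.52 for FOXS1, 4.45 for FOXC2, 3.18 for SNAI2 and 2.64 for ZEB1. Within the mesenchymal-like cluster the same genes stood at 0.64, -0.01, 0.39 and 0.30, none of them called, and the difference between the 2 sets of cells was not tested. Markers of mesenchyme moved in the outside cells too, where 10 of the 11 tested were called higher and 0 lower (median log2 fold change 2.38). COL1A2, found in 79.5% to 81.4% of mesenchymal-like cells at 1000 UMIs, was found in 1.06% and 0.878% of the other cells of the controls and in 6.03% and 2.79% with TGFB1. At full depth the latter shares were 1.65%, 2.85%, 14.7% and 7.21%. Whether free or co-captured mesenchymal RNA took part in the outside values was not tested.

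**Figure D2:**
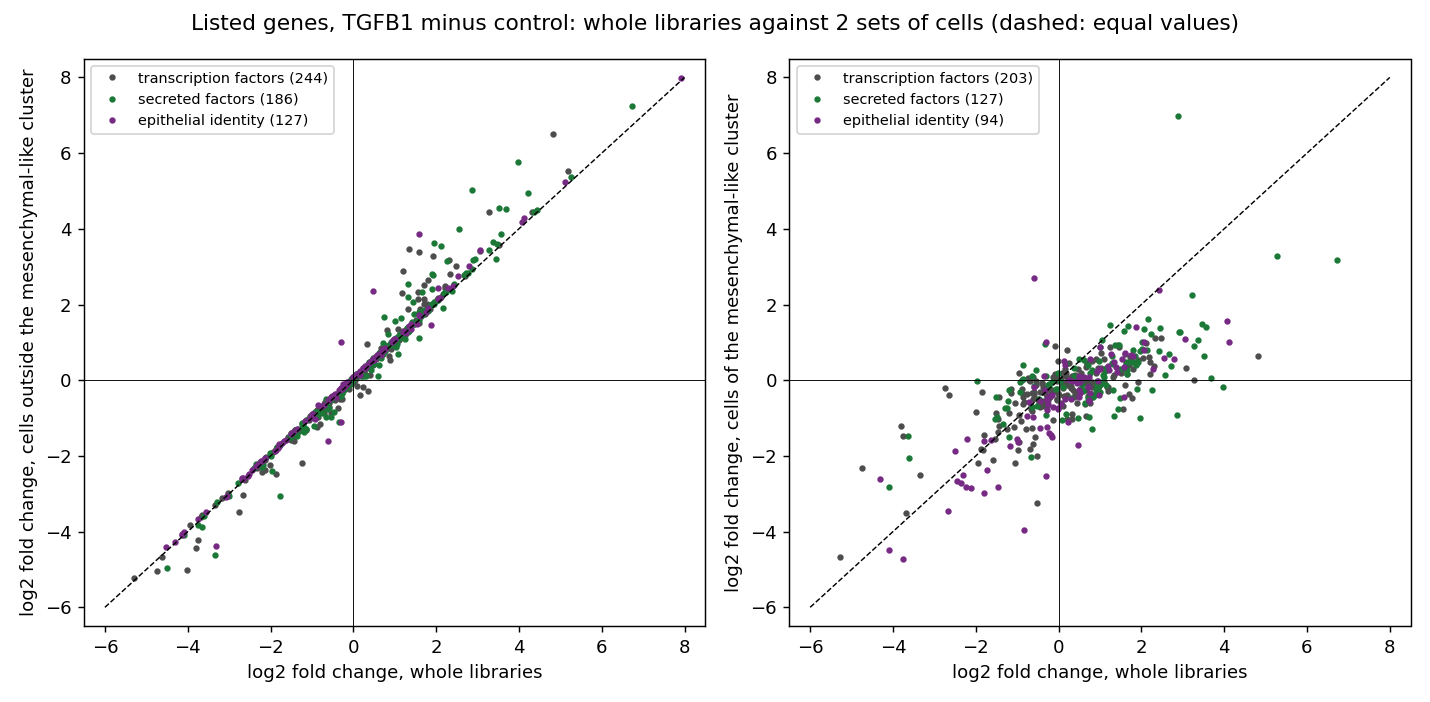
Log2 fold change (TGFB1 minus control) of listed genes in whole libraries (x axis) against cells outside the mesenchymal-like cluster (left panel) and within it (right panel), with colours for the 3 groups of lists and a dashed line of equal values. The x and y values of a gene share cells. FOXC2 lies at 3.27 and 4.45 in the left panel and at 3.27 and -0.01 in the right one.

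Some factors of the endodermal organs fell and most were not called. No hepatocyte factor rose and 8 of the 21 tested fell (38.1%), with a list median of -0.95. ONECUT1, which acts early in liver and bile duct formation, was at 114 and 119 CPM in the controls and at 8.63 and 9.47 CPM with TGFB1. Its fall was -3.69 ± 0.47 in whole libraries (adjusted p = 0.00012) and -3.61 outside the mesenchymal-like cluster. FOXA2, a pioneer factor of endoderm, went from 66.1 and 34.4 CPM to 4.21 and 5.61 CPM (-3.35 ± 0.34, adjusted p = 2.05e-05). HHEX (-1.80), GATA6 (-1.51), NR0B2 (-1.5), CEBPA (-1.41), ONECUT2 (-0.95) and PROX1 (-0.84) fell as well, of which HHEX kept its call when any 1 of the 4 libraries was left out and CEBPA did so for none.

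HNF4A, the factor that heads the hepatocyte network, was at 34.2 and 25.5 CPM in the controls and at 30.9 and 26.7 CPM with TGFB1. The groups overlapped, with a log2 fold change of -0.05 ± 0.54 (adjusted p = 0.969). That SE leaves changes of either sign within reach. GATA4 stood at 32.3 and 25.1 CPM against 13.8 and 17.7 CPM (-0.87 ± 0.30, adjusted p = 0.0535), and 5 of the alternative settings called it, among them the fit to the 4 libraries alone (adjusted p = 0.0453). FOXA3 had a log2 fold change of -0.77 and was not called (adjusted p = 0.0602). NR5A2 and TBX3, on the same list, were not called either.

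In the list of gut, foregut and ductal factors the lowest was NKX6-2, a homeobox factor (chr10:132783179-132786147). It was at 49 and 93.0 CPM in the controls and at 2.25 and 1.37 CPM with TGFB1, the largest fall among the transcription factors that met the naming rule (-5.29 ± 0.55, adjusted p = 2.91e-05). It was also called within the mesenchymal-like cluster (-4.66). At 1000 UMIs, 1.46% and 2.32% of those cells in the controls held an NKX6-2 UMI, against 6.13% and 9.30% outside. At full depth these were 2.37%, 6.29%, 8.81% and 27.0%. The part of free RNA in these values was not tested. SPDEF (-3.17), a secretory cell factor, NKX6-1 (-3.03), ISX (-2.13), HNF4G (-1.95), PDX1 (-1.58), the pancreatic and duodenal factor, and MNX1 (-1.40) fell too, HNF4G and MNX1 in 2 of the 4 repeats. CDX2, which sets intestinal identity, was at 24.6 and 42.8 CPM in the controls and 14.5 and 14.3 CPM with TGFB1 (-1.23 ± 0.35, adjusted p = 0.0247). That call was lost without control 2 (adjusted p = 0.161), TGFB1 1 (0.137) or TGFB1 2 (0.118), and outside the cluster the value was -1.15. SOX9, a factor of bile ducts and crypts, was at 177 and 122 CPM against 132 and 138 CPM, with overlapping groups (-0.15 ± 0.33, adjusted p = 0.773).

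**Figure D3:**
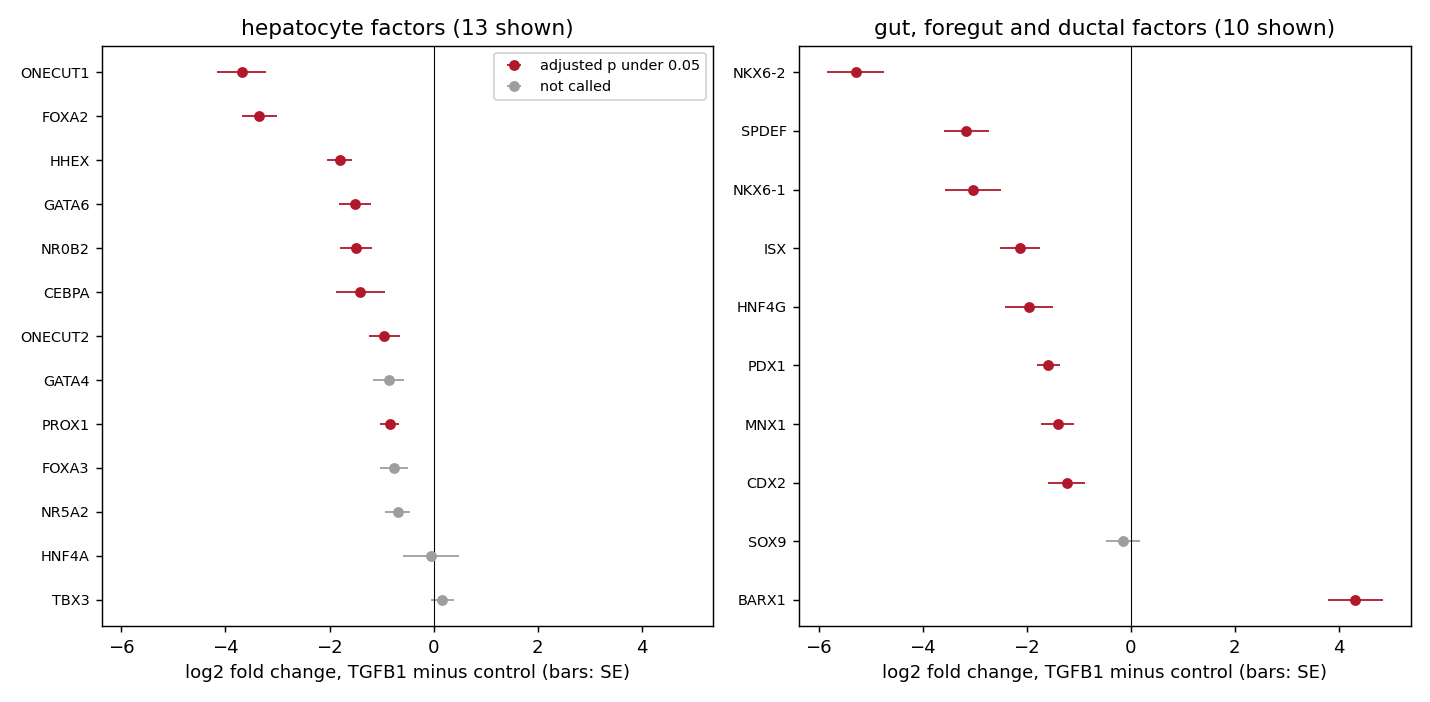
Log2 fold change with TGFB1 (points, bars for the SE) of the 13 hepatocyte factors and the 10 gut, foregut and ductal factors named in the text, red where the adjusted p was under 0.05. ONECUT1 (-3.69) and NKX6-2 (-5.29) lie farthest left, and HNF4A (-0.05) and SOX9 (-0.15) lie near 0.

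Of 18 tested factors of the cell cycle 8 were lower (44.4%), 10 were not called and none was higher. MYBL2, which activates genes of late cell cycle phases, was at 13.1 and 9.40 CPM in the controls and at 0.510 and 0.308 CPM with TGFB1 (-4.75 ± 0.36, adjusted p = 3.12e-06). E2F8, a repressor of the E2F family, went from 4.74 and 5.33 CPM to 0.255 and 0.142 CPM (-4.63 ± 0.39, adjusted p = 7.21e-06). E2F1, the activator that opens S phase, went from 8.43 and 8.54 CPM to 0.595 and 0.615 CPM (-3.80 ± 0.24, adjusted p = 9.79e-07). In each case every TGFB1 library lay below every control, a condition of the rule that named these genes. Outside the mesenchymal-like cluster the values were -5.04, -4.68 and -4.43. E2F2 (-4.02), FOXM1 (-3.76), HMGB2 (-2.66), MYBL1 (-2.33) and TFDP2 (-0.63) fell too (MYBL1 in 3 and TFDP2 in 1 of the 4 repeats), and 13 of 14 general cell cycle markers did, while MYC was at 9.91 and 8.84 CPM against 14.9 and 9.73 CPM and was not called. E2F2 fell farther than E2F1 but did not meet the naming rule. Cells of 1 cluster, with TOP2A, CENPF and MKI67 at its head, made up 18.8% and 16.6% of control cells and 0.583% and 0.246% of TGFB1 cells.

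Of 14 tested neural and endocrine factors 3 fell and none rose. ISL1, a homeobox factor of motor neurons and endocrine cells, was at 38.3 and 31.1 CPM in the controls and at 5.00 and 5.28 CPM with TGFB1 (-2.75).

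In the SMAD, ID and SKI family, SKIL (1.92), SMAD3 (0.64) and TGIF1 (0.80) rose and ID2 (-1.53), SMAD9 (-1.24) and TGIF2 (-0.63) fell, of 16 tested. SKIL, a corepressor of SMAD complexes, was at 98.8 and 130 CPM in the controls and at 472 and 394 CPM with TGFB1. ID1, a target of BMP signalling, was at 384 and 687 CPM in the controls and at 646 and 543 CPM with TGFB1. Its groups overlapped (0.15 ± 0.35, adjusted p = 0.792). Of these, SKIL and ID2 kept their calls when any 1 of the 4 libraries was left out.

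Of 19 tested TEAD, RUNX, ETS and TCF factors 7 rose (36.8%) and 2 fell (10.5%), 4 of the rises and 1 of the falls without each library. The rises included RUNX1 (2.21), ELK3 (2.21), ETS1 (2.04), LEF1 (1.93) and ETS2 (1.65), and the falls were ETV1 (-1.86) and TCF7L1 (-0.94), with LEF1 called in none and TCF7L1 in 1 of the 4 repeats. RUNX1, a factor of blood and of many epithelia, was at 14.4 and 13.4 CPM in the controls and at 60.6 and 67.8 CPM with TGFB1. Of 9 tested Notch-linked HES and HEY factors, HES2 (2.71), HEYL (2.34), HEY1 (1.74) and HES4 (1.03) rose and HES1 (-1.45) fell, HES4 in 2 and HES1 in 1 of the 4 repeats. Of 12 tested SOX factors outside the gut list 4 fell, none of them without each library, and SOX5 rose (2.17), from 5.41 and 6.29 CPM to 24.3 and 28.8 CPM. Of 22 tested AP-1, MAF and EGR factors 7 rose and 4 fell, with 0 of the rises and 1 of the falls holding without each library, and the immediate early genes FOS (-1.21), EGR1 (-1.46) and EGR3 (-1.87) were among the falls, each called in at most 2 of the 4 fits that leave out a library.

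The windows before the start sites of 3 of these factors are printed as examples of factors with large changes: TP63 and TFAP2A among the rises, E2F1 among the falls. Each holds the 250 bases before the RefSeq start of the gene (GRCh38.p14), 5′ to 3′ on the gene's strand, at chr3:189631139-189631388 (plus), chr6:10419660-10419909 (minus) and chr20:33686386-33686635 (minus). Capitals mark matches, on either strand, to CAGAC (a SMAD-binding box), TGANTCA (an AP-1 site), TTTCCCGC or TTTGGCGC (E2F sites). Among the 27305 windows of the RefSeq table these letters occur in 37.8%, 6.6%, 1.42% and 0.553%.
TP63: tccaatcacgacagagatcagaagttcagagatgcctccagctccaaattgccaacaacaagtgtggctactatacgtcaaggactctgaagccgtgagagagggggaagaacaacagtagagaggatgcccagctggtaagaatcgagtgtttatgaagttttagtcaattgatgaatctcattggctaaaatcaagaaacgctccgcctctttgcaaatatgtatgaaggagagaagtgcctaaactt
TFAP2A: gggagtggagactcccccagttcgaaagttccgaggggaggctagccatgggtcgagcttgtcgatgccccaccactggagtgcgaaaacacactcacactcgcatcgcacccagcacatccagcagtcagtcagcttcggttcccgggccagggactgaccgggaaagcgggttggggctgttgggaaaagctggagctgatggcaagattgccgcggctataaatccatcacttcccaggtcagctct
E2F1: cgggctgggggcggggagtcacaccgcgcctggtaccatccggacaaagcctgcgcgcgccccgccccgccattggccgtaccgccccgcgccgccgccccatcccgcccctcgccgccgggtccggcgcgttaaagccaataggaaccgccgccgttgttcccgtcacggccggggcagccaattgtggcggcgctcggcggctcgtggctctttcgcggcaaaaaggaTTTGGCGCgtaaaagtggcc
The E2F1 window holds 1 match, to TTTGGCGC, and the other 2 windows hold none. CAGAC occurred in 31.5% of the windows of the 108 listed genes called higher that have one, in 30.9% of the 81 called lower and in 34.1% of the 261 not called, and TGANTCA in 8.33%, 3.7% and 8.43%. A match is a run of letters, not a bound site. The 3′ counts do not tell from which start site a gene was read, so a printed window may not be the one used. MYBL2 fell farther than E2F1; its window held 1 CAGAC match and no match to the other 3, and is not printed because it runs past the annotated start of the gene.

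Among secreted factors the largest change was in GAL, which encodes the neuropeptide galanin (chr11:68683779-68691175). It was at 1.29 and 2.96 CPM in the controls and at 269 and 209 CPM with TGFB1, a log2 fold change of 6.73 ± 0.59 (adjusted p = 8.94e-06) and 7.54 without control 2. At 1000 UMIs per cell, 20.1% (19.02 to 21.15, Wilson 95% interval for counting error alone) and 17.3% (16.3 to 18.2) of cells outside the mesenchymal-like cluster held a GAL UMI with TGFB1, against 0.09355% and 0.188% in the controls. At full depth these were 56.3%, 45.4%, 0.141% and 0.809%. Within the mesenchymal-like cluster the shares at 1000 UMIs were 7.81% and 8.20% with TGFB1 and 1.46% and 1.16% in the controls, and the gene was called there as well (3.17). The part of free RNA in these shares was not tested.

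Of 24 tested ligands of the TGF-β family, 7 rose and 3 fell. LEFTY2, an inhibitor of NODAL signalling, was at 0.192 and 1.40 CPM in the controls and at 32.1 and 38.7 CPM with TGFB1. Its rise was 5.26 ± 0.75 (adjusted p = 0.000305), 4.65 without control 1, 7.52 without control 2 and 5.36 outside the cluster. Its near-identical neighbour LEFTY1 went from 98.9 and 160 CPM to 248 and 274 CPM (1.01, in 1 of the 4 repeats), and how the counting shared reads between the 2 is not given in the sources used here. INHBA, the subunit of activin A, went from 9.39 and 17.5 CPM to 90.5 and 69.8 CPM (2.56 ± 0.48, adjusted p = 0.0022), and its log2 fold change was 4 outside the mesenchymal-like cluster and 0.13 within it.

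The organoids' own TGFB1 transcript (chr19:41301587-41353922) was at 42.7 and 51.4 CPM in the controls and at 163 and 164 CPM in the treated libraries. It rose by 1.79 ± 0.20 (adjusted p = 5.42e-05) and kept its call when any 1 of the 4 libraries was left out. BMP6 (3.97), BMP8B (1.57) and BMP7 (1.46) rose, and BMP2 (-1.22), AMH (-1.19) and GDF11 (-0.87) fell, none of these 3 falls holding without each library. Despite its large rise BMP6 did not meet the naming rule. GDF15, a stress-induced ligand, was at 79.0 and 108 CPM against 114 and 72.1 CPM, with overlapping groups (-0.01 ± 0.26, adjusted p = 0.995). TGFB2 (0.93) and TGFB3 (-0.31) were not called, at adjusted p = 0.0647 and 0.601.

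Of 13 tested secreted antagonists of the same family, 5 were higher, 1 lower and 7 not called. CER1, which binds NODAL and BMP ligands (chr9:14719724-14722733), was at 1.20 and 4.14 CPM in the controls and at 68.7 and 47.9 CPM with TGFB1 (4.37 ± 0.54, adjusted p = 0.000104), and its rise was 5.61 without control 2 and 4.44 outside the cluster. The activin antagonists FST (2.90) and FSTL3 (2.01) and the BMP antagonists GREM1 (2.13) and NBL1 (0.61) also rose, NBL1 in 1 of the 4 repeats. CHRDL1, a BMP antagonist, fell from 6.47 and 3.74 CPM to 0.553 and 0.473 CPM (-3.29 ± 0.70, adjusted p = 0.00514). Its call was lost without TGFB1 1 (adjusted p = 0.0511) or TGFB1 2 (0.0509).

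WNT ligands and modulators rose in 11 of 27 cases (40.7%) and fell in 2 (7.41%), and 5 of the rises and 1 of the falls held without each library. WNT5B, a ligand of β-catenin-independent signalling, went from 0.671 and 0.583 CPM to 8.10 and 6.51 CPM (3.56 ± 0.40, adjusted p = 5.14e-05), and its value outside the cluster was 3.85. WNT7A (4.44), WNT11 (3.68), WNT4 (2.68), WNT2 (2.45), WNT9A (1.65) and WNT5A (1.63) rose too, WNT2 in 1 and WNT9A in none of the 4 repeats. WNT7A and WNT11 rose farther than WNT5B but did not meet the naming rule. WNT4, known from kidney and gonad, was at 3.83 and 11.3 CPM in the controls and 53.01 and 46.04 CPM with TGFB1. The falls were the antagonists DKK1 (-1.96) and SFRP5 (-1.49), while the antagonists SFRP1 (1.47), DKK3 (0.98) and NOTUM (2.01) and the agonist RSPO3 (1.89) rose, none of these 4 without each library.

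Of 29 tested cytokines 14 rose (48.3%), 10 of them without each library, and none fell. IL11, a cytokine of the IL-6 family known to act downstream of TGF-β, went from 1.20 and 2.95 CPM to 27.5 and 20.8 CPM (3.47). CCL2, a chemokine that draws monocytes, went from 18.9 and 35.5 CPM to 302 and 226 CPM (3.27). CXCL14 (2.87), IL1A (2.76), IL18 (2.24), LIF (1.96), CXCL12 (1.96), TNF (1.95) and IL32 (1.68) were also higher, LIF in 2 of the 4 fits that leave out a library. CXCL14 had a log2 fold change of 5.02 outside the mesenchymal-like cluster and -0.91 within it, and CXCL12 had 3.64 and -1.01, the values within not called.

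Growth factors split. PDGFB, a ligand that draws pericytes and stellate cells, rose from 4.5 and 6.16 CPM to 44.5 and 34.7 CPM (2.88), and ANGPTL4 (2.93), ANGPTL2 (2.26) and VEGFC (1.73) rose, the last in 1 of the 4 repeats. IGF2, a fetal growth factor, fell from 232 and 230 CPM to 21.3 and 15.6 CPM (-3.65 ± 0.54, adjusted p = 0.000414) and was also called within the mesenchymal-like cluster (-1.47). The part of free RNA in the value within the cluster was not tested. VEGFA (-1.54), KITLG (-1.5), PDGFD (-1.24) and MDK (-0.92) fell, MDK in 1 of the 4 repeats. VEGFA was at 348 and 220 CPM in the controls and at 98.8 and 95.9 CPM with TGFB1.

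FGF9, a ligand of FGF receptors known from organ mesenchyme and epithelium, fell from 9.58 and 8.24 CPM to 0.468 and 0.852 CPM (-3.75 ± 0.37, adjusted p = 2e-05, and -3.83 outside the cluster). The FGF list held 4 falls (FGF9, FGF19, FGF17 and FGFBP1) and 2 rises (FGF20 and FGF1) of 15 tested, and of the falls FGF9 alone held without each library. EGF family ligands held 4 rises of 11 (AREG, HBEGF, BTC and NRG3) and no fall, with HBEGF alone holding without each library. AREG, amphiregulin, was at 124 and 204 CPM in the controls and at 501 and 297 CPM with TGFB1, and was called in 2 of the 4 fits that leave out a library.

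IGF-binding proteins, which hold IGFs in the extracellular space, rose in 4 of 7 tested cases. IGFBP2 was at 575 and 1698 CPM in the controls and at 4952 and 4503 CPM with TGFB1 (2.06), and IGFBP7 at 112 and 225 CPM against 1993 and 1501 CPM (3.37). IGFBP4 (1.65) and IGFBP6 (1.81) rose and IGFBP1 fell (-3.00, at no more than 1.05 CPM). The calls of IGFBP6 and IGFBP1 did not hold without each library.

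EDN3, endothelin 3, fell from 87.8 and 124 CPM to 8.19 and 9.16 CPM (-3.61 ± 0.43, adjusted p = 7.75e-05), with -3.60 in the outside cells and -2.06, also called, in the mesenchymal-like ones. In the controls EDN3 averaged 24.9 CPM in the mesenchymal-like cells and 127 CPM outside them. The part of free RNA in the former was not tested. The peptide hormones and neuropeptides as a whole split evenly, with 9 rises and 9 falls of 42, of which 3 and 2 held without each library. PTHLH, the parathyroid hormone-like peptide, rose (2.72), from 5.99 and 9.02 CPM to 55.0 and 44.8 CPM. RELN, a secreted guidance protein of neurons that hepatic stellate cells also make, fell from 61.8 and 25.1 CPM to 2.70 and 2.37 CPM (-4.09 ± 0.43, adjusted p = 3e-05), and by 3.31 without control 1. Its log2 fold change outside the mesenchymal-like cluster was -4.08. The granule protein PCSK1N rose (2.43), from 86.0 and 154 CPM to 651 and 641 CPM.

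SERPINE2, a protease inhibitor known as protease nexin 1, was at 10.4 and 18.1 CPM in the controls and at 161 and 168 CPM with TGFB1. Its rise was 3.51 ± 0.42 (adjusted p = 7.51e-05) in whole libraries, 4.56 outside the mesenchymal-like cluster and 0.64 within it. Of 14 tested secreted serpins 6 rose and 2 fell (SERPINF2 and SERPING1), of which 3 and 1 held without each library. SERPINA1, the α1-antitrypsin gene of hepatocytes, was at 1162 and 2312 CPM in the controls and at 4676 and 3833 CPM with TGFB1 (1.29), called in 1 of the 4 fits that leave out a library.

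**Figure D4:**
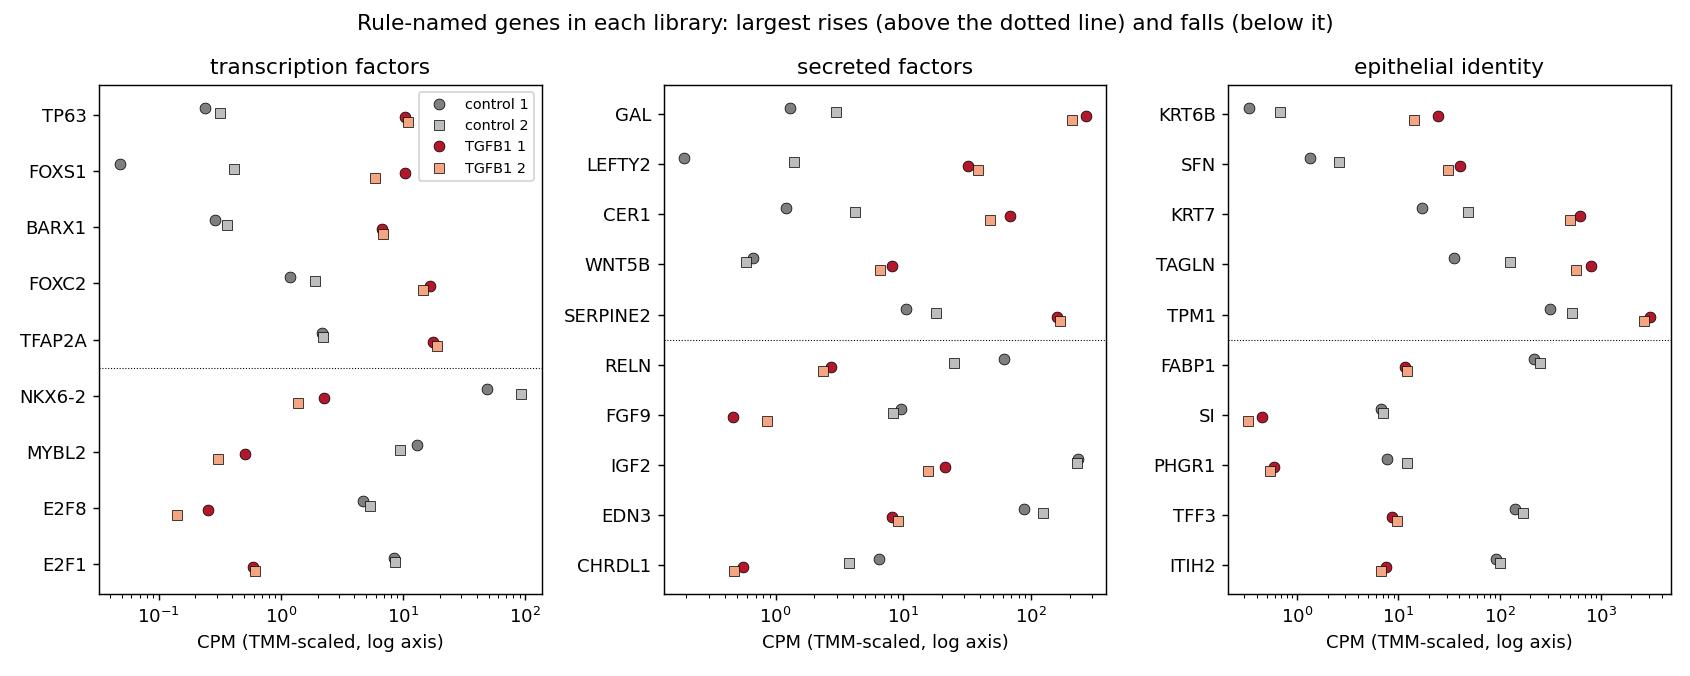
CPM in each library (log axis) of 29 genes among those with the largest rise or fall in each group of lists, circles for replicate 1 and squares for replicate 2. The groups do not overlap for any of the 29, a condition of the rule that named them, and GAL shows the widest gap, from at most 2.96 to at least 209 CPM.

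Of 30 tested genes of epithelial adhesion and junctions 10 rose (33.3%), 4 of them without each library, and none was called lower. CDH1, E-cadherin, was at 190 and 166 CPM in the controls and at 319 and 285 CPM with TGFB1 (0.76 ± 0.20, adjusted p = 0.0162). EPCAM was at 378 and 716 CPM against 1218 and 986 CPM (1.01 ± 0.30, adjusted p = 0.0293). In neither gene did the groups overlap, but both calls were fragile. The fit outside the mesenchymal-like cluster used the 4 libraries alone, and the log2 fold change of EPCAM there was 1.09. That of EPCAM was lost without control 1 (adjusted p = 0.213), TGFB1 1 (0.198) or TGFB1 2 (0.0651), in the fit to the 4 libraries alone (0.101) and outside the mesenchymal-like cluster (0.0816), and that of CDH1 without TGFB1 1 (0.137) or TGFB1 2 (0.0543) and in the fit to the 4 libraries alone (0.0677). The desmosomal genes DSP (1.61), DSC2 (1.22) and DSG2 (0.93) rose and kept their calls when any 1 library was left out. DSP was at 328 and 382 CPM in the controls and at 1112 and 1053 CPM with TGFB1.

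Of 7 tested simple keratins KRT7 alone was called. KRT7, a keratin of bile ducts and other ducts (chr12:52232520-52252186), was at 17.3 and 49.3 CPM in the controls and at 625 and 498 CPM with TGFB1 (4.07 ± 0.45, adjusted p = 3.99e-05), and its rise was 5.03 without control 2 and 4.17 outside the cluster. KRT19 was at 381 and 1024 CPM against 1567 and 1146 CPM (0.95 ± 0.39, adjusted p = 0.0962), KRT8 at 1020 and 1574 CPM against 2412 and 1969 CPM (adjusted p = 0.0507), and KRT18 at 552 and 1591 CPM against 2476 and 1794 CPM. In all 3 the TGFB1 libraries lay above the controls and control 1 lay lowest. The log2 fold change of KRT19 was 1.84 without control 2 (adjusted p = 0.00306) and 0.40 without control 1 (adjusted p = 0.5025).

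Among genes of stratified epithelium, KRT6B (5.12 ± 0.55, adjusted p = 3.63e-05), SFN (4.11 ± 0.46, adjusted p = 4.51e-05) and KRT16 rose, of 14 tested. KRT6B went from 0.335 and 0.682 CPM to 24.6 and 14.2 CPM, with the reservation that KRT6 genes are near-identical copies, and its value outside the cluster was 5.24. SFN, the 14-3-3σ protein of epithelial cells, went from 1.34 and 2.61 CPM to 40.7 and 31.1 CPM, and without control 2 the 2 genes stood at 5.86 and 4.75. KRT16 was at 0 and 0.0166 CPM in the controls and at 5.59 and 1.78 CPM with TGFB1, called in 1 of the 4 fits that leave out a library. The basal keratin KRT5, by contrast, was at 0.383 and 1.41 CPM against 1.83 and 0.971 CPM, with overlapping groups (adjusted p = 0.831, but 0.047 outside the mesenchymal-like cluster), and KRT15 was at 8.33 and 7.29 CPM against 3.95 and 4.73 CPM (adjusted p = 0.157).

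Of 19 tested hepatocyte secretory genes 10 fell (52.6%) and none rose, with a median of -1.99. SERPINA1, also a hepatocyte product, is counted with the secreted serpins and was called higher, a call that did not hold without each library. ALB, albumin, the defining product of hepatocytes, was at 2.54 and 2.73 CPM in the controls (53 and 164 UMIs) and at 0.128 and 0.0947 CPM with TGFB1 (6 and 4 UMIs), a log2 fold change of -4.53 ± 0.77 (adjusted p = 0.0011, and -4.42 outside the cluster). Other liver products were higher than ALB's few UMIs: AFP was at 394 and 375 CPM in the controls and at 73.9 and 82.3 CPM with TGFB1 (-2.30), and TTR at 288 and 476 CPM against 155 and 183 CPM (-1.18, called in 1 of the 4 fits that leave out a library). ITIH2, a plasma inhibitor chain, fell from 93.1 and 101 CPM to 7.55 and 6.79 CPM (-3.76 ± 0.47, adjusted p = 9.99e-05). APOA1 was at 54.3 and 149 CPM against 89.5 and 70.7 CPM and was not called.

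Of 17 tested enterocyte genes 8 fell (47.1%), 4 of them without each library, and none rose, with a median of -2.21. FABP1, a fatty acid-binding protein of liver and gut (chr2:88122982-88128062), was at 220 and 252 CPM in the controls and at 11.8 and 12.1 CPM with TGFB1 (-4.31 ± 0.59, adjusted p = 0.000221). The share of cells outside the mesenchymal-like cluster with a FABP1 UMI at 1000 UMIs was 12.96% and 11.18% in the controls and 0.663% and 0.768% with TGFB1 (14.8%, 23.1%, 2.40% and 1.56% at full depth), and in mesenchymal-like cells it was at most 2.56%. SI, the sucrase of the brush border, went from 6.71 and 7.04 CPM to 0.447 and 0.331 CPM (-4.13 ± 0.60, adjusted p = 0.00036), and PHGR1 from 7.71 and 12.2 CPM to 0.595 and 0.544 CPM (-4.13 ± 0.71, adjusted p = 0.0012). TFF3, a trefoil peptide of goblet cells, went from 142 and 171 CPM to 8.61 and 9.68 CPM (-4.10 ± 0.47, adjusted p = 5.25e-05).

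AGR2, AGR3, TFF2 and SPINK1 fell as well, making 5 of 14 mucous and gastric genes, AGR2 in 3 of the 4 repeats. OLFM4, an intestinal stem cell marker, was at 91.9 and 91.6 CPM against 69.1 and 65.2 CPM and was not called (adjusted p = 0.321). Of 15 tested ductal genes 5 fell (MUC1, SCTR, ANXA4, DCDC2 and CFTR) and none rose. The duct keratins KRT7, which rose (4.07), and KRT19, which was not called (0.95), are counted with the simple keratins instead. CFTR, the chloride channel of ducts, was at 91.3 and 145 CPM in the controls and at 50.5 and 35.5 CPM with TGFB1 (-1.46), while SPP1 was not called (-0.72, adjusted p = 0.324). All 8 called enterocyte genes were called outside the mesenchymal-like cluster too, FABP1 at -4.28. A cluster led by genes of these lists, among them MUC13, FABP1, TFF2 and TFF3, held 4.37% and 8.23% of control cells and 0.766% and 0.724% of TGFB1 cells.

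Genes of the mesenchymal cytoskeleton rose in 10 of 14 cases (71.4%), 5 of them without each library, and none fell. VIM, vimentin, was at 436 and 1149 CPM in the controls and at 5019 and 4190 CPM with TGFB1 (2.54 ± 0.51, adjusted p = 0.00374), with a log2 fold change of 2.74 outside the mesenchymal-like cluster and 0.58 within it. TAGLN, a protein of contractile cells, went from 35.7 and 127 CPM to 792 and 572 CPM (3.06 ± 0.67, adjusted p = 0.00573), and its call was lost without control 1 (2.42, adjusted p = 0.0533). TPM1, tropomyosin 1, went from 319 and 517 CPM to 3091 and 2657 CPM (2.78 ± 0.38, adjusted p = 0.000233). For all 3 the TGFB1 libraries lay above both controls, a condition of the rule that named TAGLN and TPM1, and control 1 lay lowest. Without control 2 the rise of VIM was 3.41 and that of TAGLN 4.26. CDH2, N-cadherin, was at 247 and 184 CPM against 312 and 299 CPM and was not called (adjusted p = 0.108), and ACTA2 was at 5.99 and 14.4 CPM against 29.2 and 25.2 CPM (adjusted p = 0.077).

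At 1000 UMIs per cell, outside the mesenchymal-like cluster, 67.3% (66.05 to 68.55) and 64.6% (63.37 to 65.76) of TGFB1 cells held both an EPCAM and a VIM UMI, against 13.6% (12.8 to 14.5) and 30.6% (29.55 to 31.57) of control cells. Thinning left out 2821 cells of control 1, 185 of control 2, 124 of TGFB1 1 and 96 of TGFB1 2. VIM was in 96.6% and 95.9% of TGFB1 cells and in 33.4% and 54.2% of control cells, and EPCAM in 69.7% and 67.1% against 40.7% and 56.8%. In each library the share with both lay close to the product of the single shares, for EPCAM with VIM and for CDH1 with VIM, so it adds nothing to them. At full depth VIM was in 99.4%, 99.2%, 42.3% and 87.0% of these cells and EPCAM in 88.9%, 93.7%, 52.2% and 93.95%. In the mesenchymal-like cells VIM was in 95.3% and 89.9% with TGFB1, close to the shares outside the cluster, and in 75.2% and 87.0% in the controls, above the shares outside it. EPCAM in mesenchymal-like cells, which should lack it, was at 6.003% to 8.759%, with median depths of 1374 to 8348 UMIs.

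CDH1 and VIM together were in 27.8% and 26.8% of TGFB1 cells and in 7.70% and 9.27% of control cells (79.0%, 75.4%, 15.4% and 55.4% at full depth). KRT7 was in 39.8% and 37.0% with TGFB1 and in 2.18% and 4.15% in the controls (76.3%, 73.3%, 3.09% and 15.2% at full depth), against 0.365% to 3.35% of mesenchymal-like cells. At full depth the cells outside the cluster with both EPCAM and VIM made up 23.9% and 81.8% in the controls and 88.4% and 93.1% with TGFB1, at median depths of 1307, 5613, 7059 and 5138 UMIs. The full-depth share in control 2 thus lay near the TGFB1 libraries where the thinned share did not. No cell type without vimentin was at hand to set the background for VIM, and the part of free RNA in the VIM shares was not tested.

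**Figure D5:**
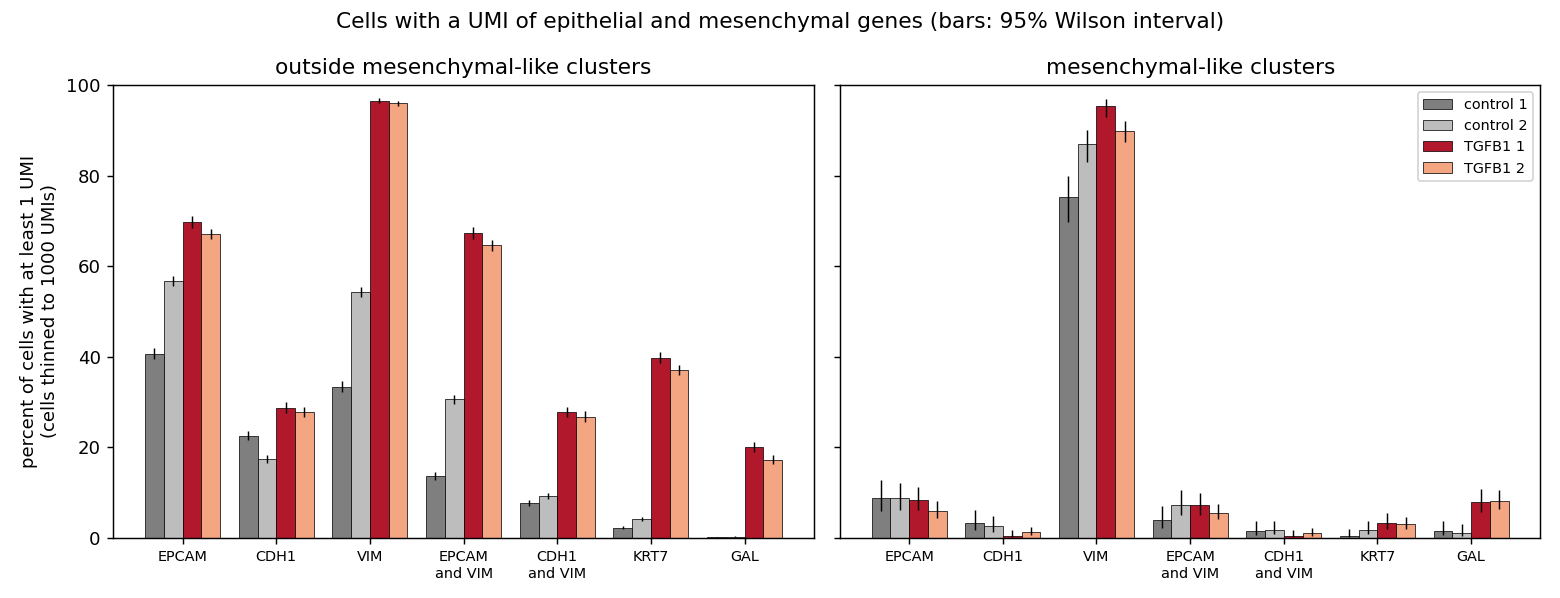
Percent of cells with at least 1 UMI of a gene, or of both genes of a pair, after thinning each cell to 1000 UMIs, in cells outside the mesenchymal-like cluster (left) and within it (right), with bars for the Wilson 95% interval. EPCAM with VIM reaches 67.3% and 64.6% with TGFB1 outside the cluster and at most 7.25% within it.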

How the data were processed

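Single-cell RNA was measured in 19 libraries, of which the 4 of the TGFB1 experiment are described and the 14 shaker libraries entered the whole-library fit. That fit used the 32732 gene identifiers present in every shaker matrix. The OA, OA control and untreated matrices listed 36601 genes and the TGFB1 and PA experiments 33538. The values are UMI counts per gene and cell, deposited as filtered matrices and whole numbers per the file headers. The submitters' processing notes name Cell Ranger 3.0.2, bcl2fastq, Scanpy and GRCh38, with no further settings given in the sources used here. Of 11879, 9370, 6729 and 7374 barcodes, 9615, 8505, 6002 and 6904 passed the cell filter. Counts were summed per library, filtered with filterByExpr, scaled by TMM and tested with edgeR 4.0.16 (quasi-likelihood, 1 coefficient per group, 14 libraries, Benjamini-Hochberg). CPM are TMM-scaled. Cells of the 4 libraries were clustered with Scanpy 1.11.5 (2000 variable genes without listed genes, 30 components, 15 neighbours, Leiden resolution 0.5). Scrublet's own threshold marked almost no cell, so doublets stayed in, and removing the highest scores was an alternative. On data simulated for the comparison of whole libraries, 22.4% of 2-fold and 91.7% of 4-fold changes were recovered, with 2.61% of calls false. Unlike the data, every simulated gene had the same spread, few genes were changed and the controls did not differ in their cells. The 2.61% is therefore not the false share of the calls made here.

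Genes were named by a rule: in each of 3 groups of lists, the 5 largest rises and 5 largest falls among called genes whose libraries did not overlap and whose higher group averaged at least 5 CPM, plus fixed anchor genes. Other listed genes were named to describe their list, with values known. Some named by the rule or listed are not reported here. Members and lists were chosen with earlier results of these data known. Alternatives were other library sets, normalizations, filters, a replicate block and leaving out each library. Gene positions are from GENCODE v44 (GRCh38). Intervals cover counting error only.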

Additional observations from a re-analysis of the deposited data

How the results depend on the processing

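Of the 43 genes followed through the alternatives, none that was called reversed its direction. Of those not called, HNF4A moved from -0.05 to 0.17, SOX9 from -0.15 to 0.13 and ID1 from 0.15 to -0.21 without control 1, HNF4A also to 0.06 without TGFB1 2, and GDF15, at -0.01, lay on either side of 0 across settings (0.25 without control 2). The ranges that follow come from leaving out 1 of the 4 libraries. Over whole libraries, 900 to 2857 genes were higher and 804 to 2697 lower, and outside the mesenchymal-like cluster 794 to 5021 were higher and 834 to 4672 lower. Transcription factors gave 30 to 45 higher and 28 to 64 lower, secreted factors 46 to 69 higher and 12 to 26 lower, and the epithelial and mesenchymal cytoskeleton genes together 14 to 31 higher and 24 to 29 lower. With no filter on low counts, 39 of the latter were higher and 42 lower. Of the 4295 calls, 1493 held in each of these 4 fits. The lowest count of higher genes came without TGFB1 1 and the highest without control 2, and the cause was not tested. With 1 library left in a group, that library is assumed to vary like those of the other groups. In the fits outside the mesenchymal-like cluster, which hold the TGFB1 experiment alone, it is assumed to vary like those of 1 other group. Deviations of libraries with the same replicate number did not go together (Pearson's r -0.43 across 19366 genes, which are not independent). The controls also differed in depth and in their cells, so this value cannot tell whether replicate numbers pair the libraries. With the replicate block, 1641 genes were higher and 1564 lower, 3151 of the 4295 calls were called again, and no call of a gene named by the rule changed. With DESeq2 on the 4 libraries 1975 were higher and 1710 lower, whereas as reported falls outnumbered rises (2104 higher, 2191 lower). With the crossed block, added after the data were seen, 2207 were higher and 2041 lower. Depth limits control 1 most.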

Other observations

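The families here were chosen after their values were seen, and the counts cover all tested members of each. Over all genes tested, 10.9% were called higher and 11.3% lower, and the counts were not tested against these shares. Among inhibitors of cyclin-dependent kinases, 4 of 7 tested rose. CDKN2B, known as a TGF-β target that holds cells in G1, was at 36.4 and 60.1 CPM in the controls and at 319 and 307 CPM with TGFB1 (log2 fold change 2.69). CDKN2A (2.66), CDKN1A (1.67) and CDKN2D (1.17) rose too. CDKN1C, an imprinted inhibitor, fell from 374 and 485 CPM to 145 and 155 CPM (-1.52).

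Of 4 FGF receptors tested 2 fell. FGFR3 fell from 140 and 89.5 CPM to 11.5 and 14.9 CPM (-3.12) and FGFR2 fell too (-1.83), while FGFR1 (0.10) and FGFR4 (-0.62) were not called. Of 9 genes of feedback on ERK signalling 4 fell (DUSP6, DUSP5, DUSP4 and SPRY1) and SPRY4 rose (1.74). Of the integrins, 7 of 15 α subunits and 4 of 7 β subunits rose, of which the calls of ITGA4, ITGA5, ITGA11, ITGB3 and ITGB4 were lost when at least 1 library was left out. ITGB6, part of the integrin that activates latent TGF-β, was at 29.8 and 27.3 CPM in the controls and at 240 and 220 CPM with TGFB1 (3.01). Of 3 TGF-β receptor genes TGFBR1 rose (1.44), TGFBR3 fell (-2.33) and the third was not called (-0.53). Of 5 tested genes of NODAL and activin reception 2 fell, of 4 EGF family receptors 1 rose, and of the 2 interleukin 11 receptor genes 1 rose, none of these 4 calls holding without each library. None of the 3 galanin receptors was called, beside the rise of GAL.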
